A study of Mus musculus with 24 samples.

Results

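The postsynaptic scaffold and spine genes are a list of 36 mouse genes. Most encode proteins of the postsynaptic density, kinases held in it or regulators of actin in dendritic spines, and Map2 and Mapt encode microtubule-associated proteins. The 36 genes are defined by gene symbol and role, in a list written with earlier results of these data known. Each was found among the 55471 genes counted in the hypothalamus. All 36 also passed the filter on low counts that left 18992 genes for testing, and the lowest count of any of them in the 23 libraries used was 74 (Homer3). The list holds the deep scaffolds Shank1, Shank2, Shank3, Homer1, Homer2 and Homer3, the membrane scaffolds Dlg1 to Dlg4, the linkers Dlgap1 to Dlgap4, and the CaMKII subunits Camk2a, Camk2b, Camk2d and Camk2g. The regulators of small GTPases are Kalrn, Trio, Tiam1, Sipa1l1, Sipa1l2, Iqsec1 and Iqsec2, and the spine actin proteins are Dbn1, Ppp1r9a, Ppp1r9b, Cttn, Baiap2 and Abi2. Gphn, Cacng2, Cnksr2, Map2 and Mapt complete it.

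RNA was measured in the whole hypothalamus of chow-fed male C57BL6/J mice aged 18 weeks, with 1 mouse per library. ExpOF mice were overfed with a sucrose-containing liquid diet by intragastric infusion, whereas control mice were infused with water through the same route, so that all groups carried the infusion. Mice were sampled at the end of overfeeding on d14, or 3 days after it on d14+3, which gave 6 ExpOF and 5 control libraries on d14 (Control d14 replicate 4 was left out) and 6 of each on d14+3. The comparison on d14 addresses what the hypothalamus expresses at the end of overfeeding, and that on d14+3 what it expresses while the mice lose the weight again.

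At an excitatory synapse, glutamate receptors in the membrane are held by the PSD-95 family of scaffolds (Dlg genes), which bind Dlgap proteins, which bind Shank proteins, which bind Homer proteins. CaMKII, a calcium-activated kinase, sits in this lattice and responds to calcium that enters through the receptors, and exchange factors for small GTPases shape the actin of the spine around it. Gephyrin, the product of Gphn, is the corresponding scaffold of inhibitory synapses, which are abundant in the hypothalamus. In bulk RNA, fewer cells of a type and less RNA per cell cannot be told apart, and the counts are sums over all isoforms of a gene.

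The libraries held between 8928182 and 34848437 counts, and the RNA integrity number (RIN) ranged from 8.0 to 10.0 in Control d14, 9.6 to 10.0 in ExpOF d14, 7.2 to 9.9 in Control d14+3 and 8.8 to 10.0 in ExpOF d14+3. The smallest chi-square statistic per degree of freedom over the 60 pairs of libraries within a group was 2.95, so no pair was a duplicate. The hypothalamic peptide genes Pmch (196 to 471 CPM, which is counts scaled to library size), Hcrt (52.9 to 187 CPM) and Pomc (14.9 to 54.6 CPM) were present in every library used. The 17 detected markers of telencephalon and thalamus, regions that border the dissected tissue, summed to 230 to 497 CPM in Control d14, 232 to 375 CPM in ExpOF d14, 393 to 736 CPM in Control d14+3 and 370 to 713 CPM in ExpOF d14+3. Markers of choroid plexus, ependyma and leptomeninges summed to 332 to 734 CPM, except in Control d14 replicate 5 (3617 CPM) and ExpOF d14+3 replicate 4 (1620 CPM). By the dates of euthanasia there was 1 cohort in July and 1 in September, each with 3 mice of every group, except that 2 of the d14 controls used belonged to September.

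Promoter windows of RefSeq (assembly GRCm38.p6), from 250 bases before to 50 bases after a start site, were matched by symbol for 28 of the 36 genes, which gave 46 windows. The other 8 genes (Abi2, Camk2a, Camk2g, Cttn, Dlgap2, Mapt, Shank1 and Shank2) had no entry. 1 window each of 4 genes is shown because the results below turn on these genes: Homer1 and Cnksr2 were among the genes nearest to a call at the end of overfeeding, and Shank3 and Dlgap3 varied most between libraries. Capitals mark the motifs searched on both strands, the core TGACG of the CRE (read as CGTCA on the other strand), the GC box GGGCGG (read as CCGCCC) and the TATA box TATAAA. This core is contained in the full CRE TGACGTCA, the site bound by CREB, a factor activated by neuronal calcium.
Homer1, chr13:93303507-93303806, plus strand: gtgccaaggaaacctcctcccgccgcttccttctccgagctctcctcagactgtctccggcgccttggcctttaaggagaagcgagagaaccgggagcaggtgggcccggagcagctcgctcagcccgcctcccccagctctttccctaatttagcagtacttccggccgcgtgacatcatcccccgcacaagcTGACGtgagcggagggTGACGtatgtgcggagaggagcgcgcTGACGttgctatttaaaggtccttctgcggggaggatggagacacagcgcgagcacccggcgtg
Cnksr2, chrX:158043148-158043447, minus strand: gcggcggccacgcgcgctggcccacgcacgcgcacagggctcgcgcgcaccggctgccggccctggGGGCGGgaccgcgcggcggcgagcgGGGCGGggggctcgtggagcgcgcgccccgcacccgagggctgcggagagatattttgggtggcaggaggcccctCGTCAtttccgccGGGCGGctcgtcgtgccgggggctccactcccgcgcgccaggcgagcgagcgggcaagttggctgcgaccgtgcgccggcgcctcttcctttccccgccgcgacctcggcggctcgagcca
Shank3, chr15:89499358-89499657, plus strand: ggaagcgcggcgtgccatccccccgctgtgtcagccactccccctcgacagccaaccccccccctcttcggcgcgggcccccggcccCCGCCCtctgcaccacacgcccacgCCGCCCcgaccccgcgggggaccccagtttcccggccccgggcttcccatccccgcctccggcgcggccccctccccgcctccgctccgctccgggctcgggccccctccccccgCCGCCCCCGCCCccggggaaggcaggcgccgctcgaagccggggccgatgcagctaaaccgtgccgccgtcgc
Dlgap3, chr4:127172630-127172929, plus strand: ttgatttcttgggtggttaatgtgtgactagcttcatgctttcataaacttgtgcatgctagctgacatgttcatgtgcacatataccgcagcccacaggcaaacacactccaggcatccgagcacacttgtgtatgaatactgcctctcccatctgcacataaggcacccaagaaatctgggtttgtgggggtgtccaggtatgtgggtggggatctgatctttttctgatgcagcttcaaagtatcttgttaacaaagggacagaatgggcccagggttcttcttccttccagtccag
Homer1 and Cnksr2 have 2 windows each, of which the first by coordinate is shown. The other Homer1 window (GC content 44.7%) holds none of the motifs, and the other Cnksr2 window, which overlaps the one shown, holds 5 GC boxes and 1 core. The Homer1 window shown holds 3 TGACG cores, the Cnksr2 window shown 1 core and 3 GC boxes, and the Shank3 window 4 GC boxes, whereas the Dlgap3 window holds none of the motifs. Their GC content was 63.0%, 79.0%, 81.0% and 47.7%, respectively. Over all 46 windows of the gene list, 24 held a GC box, 7 a TGACG core, 5 a TATA box and 0 the full CRE. The corresponding shares over all 32851 promoter windows of the same length were 35.7%, 20.8%, 13.6% and 1.79%. The median GC content was 63.3% over the windows of the list and 52.7% over all windows.

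Levels were compared between genes as CPM per kilobase of exon, averaged over the 23 libraries. The length is 1 value per annotated gene, not that of the transcripts expressed, so the order of the genes also depends on the annotation. Mapt, which encodes the axonal microtubule protein tau, was the most abundant at 96.6 ± 2.63 (SD, n = 23). It was followed by Ppp1r9b (spinophilin, which targets a phosphatase to spines) at 89.0 ± 14.7, Camk2b at 73.4 ± 3.54, Camk2a at 69.6 ± 6.87 and the dendritic microtubule protein Map2 at 67.0 ± 12.9, all SD with n = 23. Of these neighbours in the order, Ppp1r9b and Camk2b differed by more than the larger of their SDs and the other pairs did not. Within the scaffold lattice, Dlg4, which encodes PSD-95, reached 34.8 ± 1.95 per kilobase. Dlgap3 and Shank1 followed at 23.7 ± 7.90 and 23.5 ± 2.76, and Shank3 (14.9 ± 5.09) and Shank2 (8.77 ± 1.22) were lower. The inhibitory scaffold Gphn stood at 19.8 ± 1.22 and Cacng2, which encodes the auxiliary AMPA receptor subunit stargazin, at 16.8 ± 1.09. The lowest level was that of Homer1 at 1.83 ± 0.312, close to Dlgap2 (1.95 ± 0.403) and Homer3 (2.03 ± 0.292), which did not differ from it beyond their SDs. The exchange factors Trio (6.27 ± 0.722), Tiam1 (6.21 ± 1.25) and Kalrn (4.71 ± 0.709) lay near the bottom as well, with Cnksr2 (3.03 ± 0.647) and Homer2 (2.71 ± 0.490). The remaining genes lay between 6.79 (Sipa1l2) and 44.8 (Camk2g).

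The spread between libraries was far from even across the list. The highest library exceeded the lowest 3.09-fold for Shank3, 2.95-fold for Dlgap3, 2.47-fold for Cnksr2, 2.30-fold for Tiam1 and 2.23-fold for Dlgap2. Mapt varied 1.12-fold and Dlg3 1.15-fold over the same 23 libraries, the smallest ranges of the 36 genes.

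**Figure D1:**
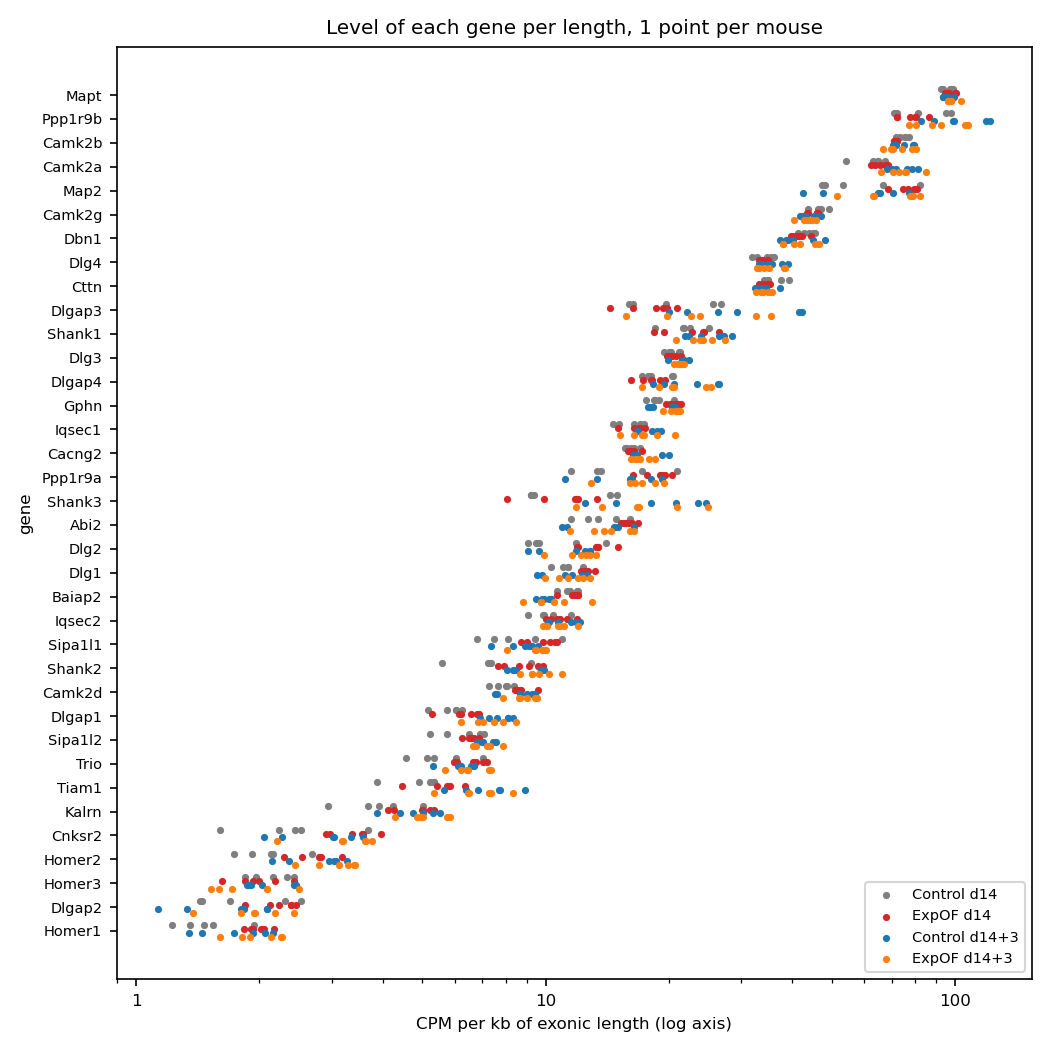
Levels of the 36 genes as CPM per kilobase of exonic length (x axis, log scale), ordered by their mean over 23 libraries, with 1 point per mouse coloured by group. Mapt is at the top (mean 96.6) and Homer1 at the bottom (mean 1.83), and the points of Shank3 and Dlgap3 spread over about 3.09-fold and 2.95-fold.

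At the end of overfeeding, 14 of the 36 genes (38.9%) were higher in ExpOF than in control mice at an unadjusted p under 0.05, and 0 were lower at that threshold. None of the 36 passed the adjusted threshold of 0.05 in edgeR's quasi-likelihood test (smallest adjusted p = 0.135 in that test), where 1 gene of all those tested did (0.00527%). DESeq2 also called 0 of the 36 and gave the same count of 14 at an unadjusted p under 0.05. Of all genes tested, 26.7% had an unadjusted p under 0.05, and 13.1% were higher with it. In total 25 of the 36 genes had a log2 fold change above 0, against 46.6% of all genes, and the median log2 fold change was 0.081, against -0.021 for all genes. The 14 genes were spread over the roles: 3 of 6 deep scaffolds, 2 of 4 Dlg genes, 0 of 4 Dlgap genes, 1 of 4 CaMKII subunits, 3 of 7 regulators of small GTPases, 2 of 6 actin proteins, and Gphn, Cnksr2 and Map2. All 7 regulators of small GTPases had a log2 fold change above 0, from 0.04 to 0.29.

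The count of 14 depended on single control libraries. Without Control d14 replicate 1, 4220 of the 19206 genes tested passed the adjusted threshold in edgeR, and 10 of the 36 were among them (Cnksr2, Dlg2, Homer1, Homer2, Kalrn, Map2, Ppp1r9a, Shank2, Sipa1l1 and Trio). In that fit 16 of the 36 had an unadjusted p under 0.05, against 38.4% of all genes. Without Control d14 replicate 2, 2 of the 36 genes had an unadjusted p under 0.05, and without replicates 5 or 6 of that group 7 and 8 genes had, against 14.4%, 15.1% and 18.3% of all genes in these fits. Over all 36 genes, the median log2 fold change was 0.13 in July and 0.018 in September, and 27 of 36 had the direction of both cohorts together in each of them. That direction comes from the same libraries, so part of this agreement is built in, and the share over all genes was not computed. The 14 genes, which were picked on the same libraries, ranged from 0.15 to 0.63 in July and from 0.05 to 0.32 in September. In the cohorts alone, 10 and 0 of the 36 had an unadjusted p under 0.05, against 18.7% and 4.40% of all genes.

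**Figure D2:**
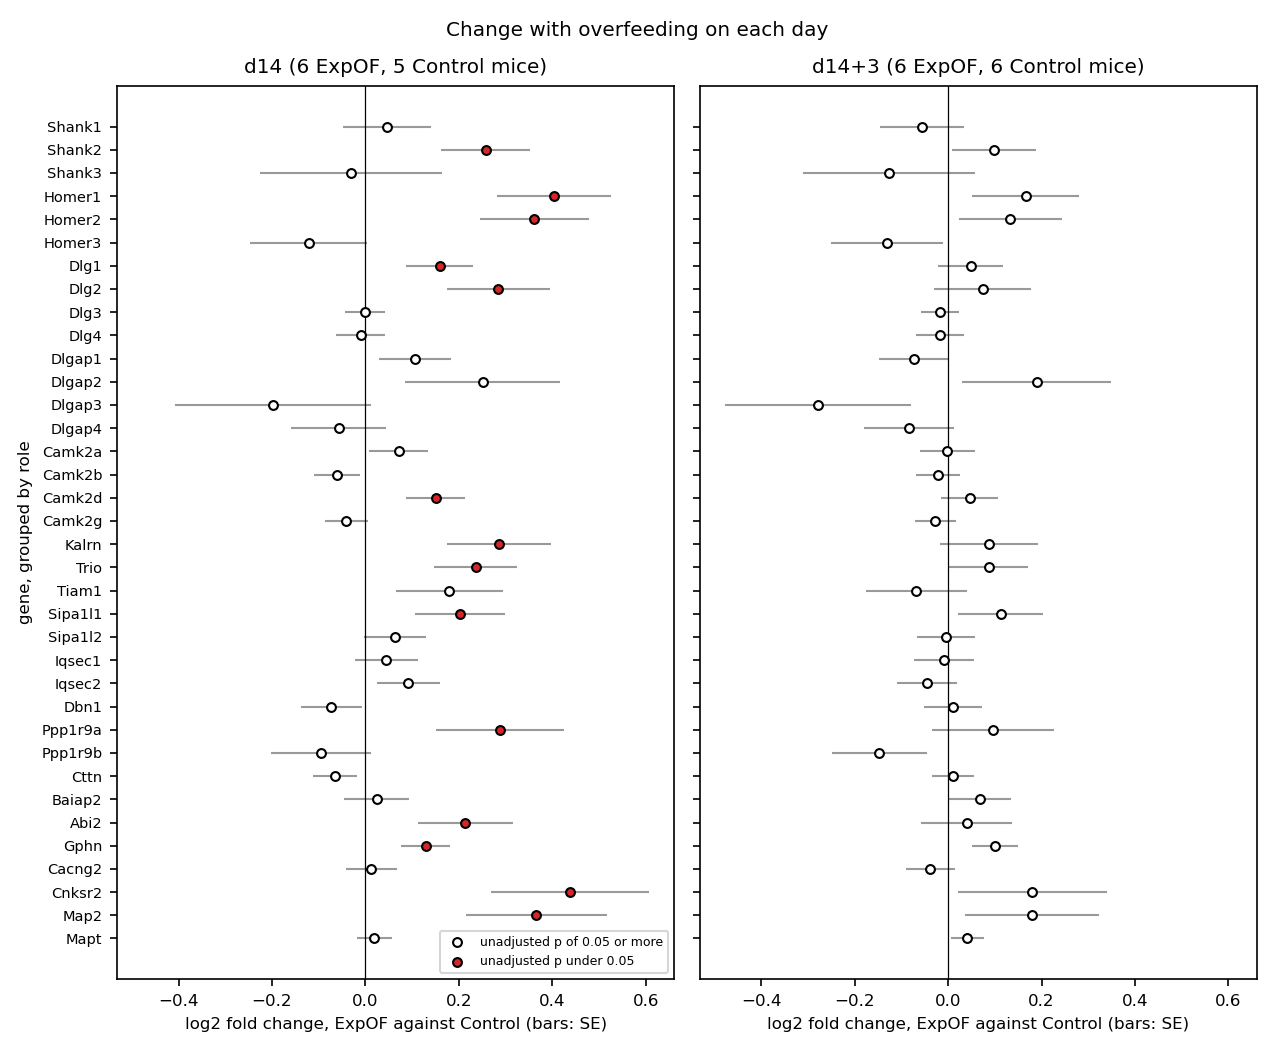
Log2 fold changes of the 36 genes, ExpOF against control mice (x axis), grouped by role, on d14 (left) and d14+3 (right), with bars for the SE and red points for an unadjusted p under 0.05. The 14 red points on d14 all lie above 0, the d14 values run from -0.20 (Dlgap3) to 0.44 (Cnksr2), and 0 points are red on d14+3.

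Among the deep scaffolds, Homer1 had the smallest p of the list on d14. Homer proteins tie Shank to metabotropic glutamate receptors and to calcium stores (Homer1, ENSMUSG00000007617, mm10 chr13:93299635-93403681). Homer1 was at 23.2, 16.2, 18.4, 14.7 and 17.6 CPM in Control d14 replicates 1, 2, 3, 5 and 6, and at 22.0, 23.7 and 26.0 CPM (lowest, median and highest) in the 6 ExpOF mice. Replicate 1 was the only control within the range of the ExpOF mice. The log2 fold change was 0.40 (SE 0.121, unadjusted p = 0.00279, adjusted p = 0.135 from edgeR), and a two-sided exact permutation test over mice gave p = 0.00866. Homer2 (ENSMUSG00000025813, chr7:81600481-81707527), at 33.9, 21.9, 27.3, 24.3 and 26.9 CPM in the controls and 29.0, 35.4 and 40.2 CPM in ExpOF mice, differed by 0.36 (SE 0.117, adjusted p = 0.135 from edgeR, exact permutation p = 0.0173). Again only replicate 1 of the controls lay above the lowest ExpOF mouse.

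Shank proteins are the master scaffolds that join the Dlgap and Homer layers, and the 3 genes did not follow 1 pattern. Shank2 (ENSMUSG00000037541, chr7:144001928-144424494) was at 99.4, 60.2, 78.9, 79.3 and 77.9 CPM in the controls and at 82.6, 95.4 and 106 CPM in ExpOF mice. All 6 ExpOF mice were above 4 of the 5 controls, with a log2 fold change of 0.26 (SE 0.0956, adjusted p = 0.139 from edgeR, exact permutation p = 0.0476). Shank1 (ENSMUSG00000038738, chr7:44310253-44360572) was at 263, 194, 229, 227 and 236 CPM in the controls and 193, 247 and 278 CPM in ExpOF mice. The 2 groups overlapped over almost their whole range, and the log2 fold change was 0.05 (SE 0.0941, unadjusted p = 0.627 from edgeR). Shank3 (ENSMUSG00000022623, chr15:89499623-89560261) was at 84.9, 84.8, 86.7, 132 and 138 CPM in the controls and 74.5, 110 and 123 CPM in ExpOF mice. The controls fell apart into 3 low and 2 high libraries that enclosed most ExpOF mice, and the log2 fold change was -0.03 (95% interval -0.41 to 0.35, unadjusted p = 0.877 from edgeR).

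Of the scaffolds nearer the membrane, Dlg2, which encodes PSD-93 (ENSMUSG00000052572, chr7:90476672-92449247), was at 251, 162, 212, 169 and 172 CPM in the controls and 213, 238 and 268 CPM in ExpOF mice. Only replicate 1 of the controls was above the lowest ExpOF mouse, and the log2 fold change was 0.28 (SE 0.110, adjusted p = 0.141 from edgeR, exact permutation p = 0.0519). Dlg4 (ENSMUSG00000020886, chr11:70016942-70044954), the most abundant of the family per length, was at 423, 460, 434, 470 and 478 CPM in the controls and 440, 447 and 462 CPM in ExpOF mice. The ExpOF range lay inside the control range, with a log2 fold change of -0.01 (95% interval -0.11 to 0.09, unadjusted p = 0.850 from edgeR). Dlgap3 (ENSMUSG00000042388, chr4:127169204-127237022), at 73.7, 89.0, 72.3, 116 and 121 CPM in the controls and 64.9, 85.7 and 94.6 CPM in ExpOF mice, had the lowest log2 fold change of the list, -0.20 (SE 0.210, unadjusted p = 0.354 from edgeR). Its 2 highest controls were the same libraries, replicates 5 and 6, that were high for Shank3.

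Of the CaMKII subunits, Camk2a and Camk2b moved little. Camk2a (ENSMUSG00000024617), the alpha subunit of excitatory forebrain neurons, was at 484, 404, 483, 503 and 469 CPM in the controls and 465, 496 and 512 CPM in ExpOF mice, a log2 fold change of 0.07 (SE 0.0627, unadjusted p = 0.269 from edgeR). Camk2b (ENSMUSG00000057897, chr11:5969644-6066362), the subunit that binds actin, was at 653, 687, 669, 689 and 705 CPM in the controls and 647, 654 and 657 CPM in ExpOF mice. The ExpOF mice were tightly grouped, all below the control median, and the log2 fold change was -0.06 (SE 0.0486, unadjusted p = 0.225 from edgeR, exact permutation p = 0.00866). Camk2d, named after its values were seen, was the 1 gene of the 36 whose groups did not overlap on d14 with ExpOF higher (1.54% of all genes), and 0 did not overlap with ExpOF lower (0.958% of all genes). It was at 188, 163, 180, 172 and 181 CPM in the controls and 190, 193 and 216 CPM in ExpOF mice, a log2 fold change of 0.15 (SE 0.0639, adjusted p = 0.151 from edgeR). Its exact permutation p of 0.00216 is the smallest that 6 against 5 mice allow. The sign of its log2 fold change reversed in the fit described below with trends on GC content and length removed.

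Kalrn and Trio encode closely related exchange factors for small GTPases that act on spine actin. Trio (ENSMUSG00000022263, chr15:27730651-28025848) was at 164, 107, 141, 120 and 125 CPM in the controls and 140, 157 and 168 CPM in ExpOF mice, a log2 fold change of 0.24 (SE 0.0896, adjusted p = 0.140 from edgeR, exact permutation p = 0.0563). Kalrn (ENSMUSG00000061751, chr16:33969073-34573532) was at 121, 70.8, 102, 88.7 and 94.1 CPM in the controls and 99.3, 120 and 128 CPM in ExpOF mice, a log2 fold change of 0.29 (SE 0.111, adjusted p = 0.141 from edgeR, exact permutation p = 0.0476). In both genes replicate 1 was the highest and replicate 2 the lowest control, and the groups overlapped. Among the actin proteins, Ppp1r9b (ENSMUSG00000038976, chr11:94991035-95006899) was at 366, 412, 361, 497 and 483 CPM in the controls and 367, 400 and 439 CPM in ExpOF mice, a log2 fold change of -0.10 (SE 0.107, unadjusted p = 0.382 from edgeR). Replicates 5 and 6 were again the high controls.

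Cnksr2, a scaffold of the Ras pathway at synapses (ENSMUSG00000025658, chrX:157821436-158043294), had the largest log2 fold change of the list on d14. It was at 34.1, 14.9, 23.4, 20.7 and 22.6 CPM in the controls and 27.0, 32.1 and 36.6 CPM in ExpOF mice, a log2 fold change of 0.44 (SE 0.169, adjusted p = 0.141 from edgeR, exact permutation p = 0.0325). The control spread of 14.9 to 34.1 CPM was wider than the difference, and replicate 1 lay among the ExpOF mice. Gphn (ENSMUSG00000047454, chr12:78226379-78684772) had a smaller difference with a smaller spread, at 69.1, 66.0, 77.3, 69.4 and 70.9 CPM in the controls and 73.8, 77.3 and 80.1 CPM in ExpOF mice. Replicate 3 was the only control above the lowest ExpOF mouse, and the log2 fold change was 0.13 (SE 0.0518, adjusted p = 0.145 from edgeR, exact permutation p = 0.0152). Cacng2 (ENSMUSG00000019146, chr15:77991748-78120028) was at 86.0, 90.3, 87.1, 93.4 and 88.8 CPM in the controls and 87.5, 89.4 and 94.5 CPM in ExpOF mice, a log2 fold change of 0.01 (95% interval -0.10 to 0.12, unadjusted p = 0.819 from edgeR).

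**Figure D3:**
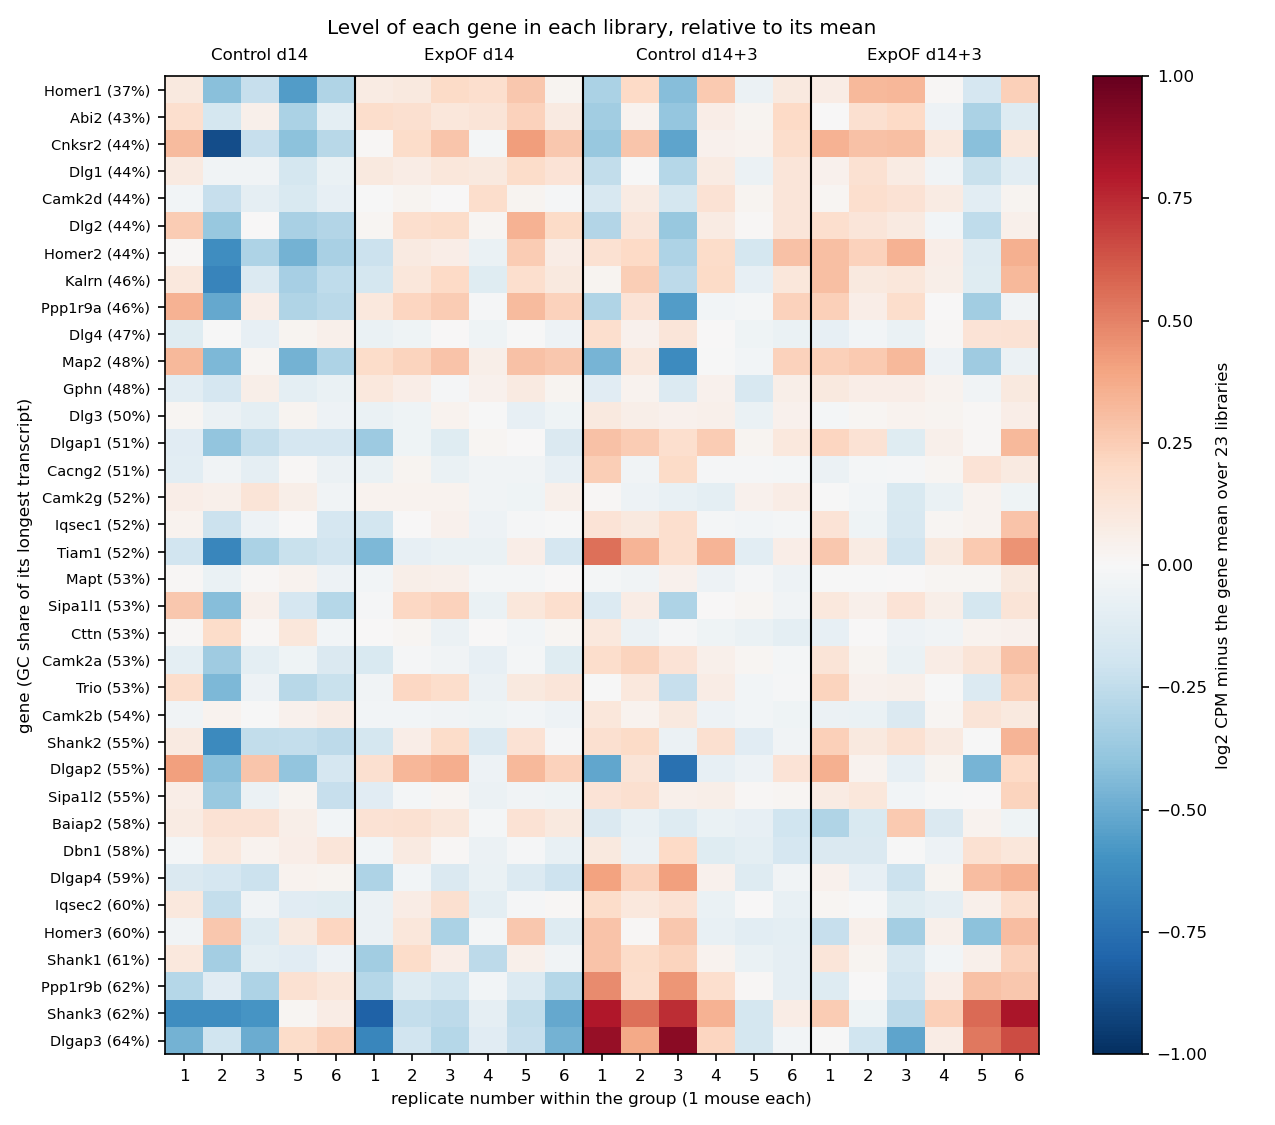
Log2 CPM of each of the 36 genes in each of the 23 libraries, minus the mean of that gene over the libraries (red higher, blue lower), with libraries in columns by group and genes in rows ordered by the GC content of their longest transcript. In most of the genes low in GC, at the top, Control d14 replicate 1 has the colour of the ExpOF d14 libraries and controls 2, 5 and 6 of that day are lower, whereas Shank3 and Dlgap3 are highest in d14+3 libraries.

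The log2 fold change on d14 tended to be higher in genes low in GC. Across the 36 genes, the d14 log2 fold change correlated with the GC content of the longest annotated transcript at Pearson's r = -0.72 and Spearman's rho = -0.66, and with gene length at r = 0.60 (across genes, which are not independent replicates and share the libraries). Over 18970 genes tested, the corresponding r with GC content was -0.38. The 14 genes higher at an unadjusted p under 0.05 had a median GC content of 45.0%, against 54.6% in the other 22 and 49.6% over all genes. The longest annotated transcript need not be the one expressed.

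A slope of the library's log2 values against GC content, in log2 units per 10 percentage points and beside gene length, was fitted for each library. It was -0.09, 0.16, 0.01, 0.22 and 0.10 in Control d14 replicates 1, 2, 3, 5 and 6 and between -0.12 and -0.02 in the 6 ExpOF d14 mice. Replicate 1, the control with the highest level of most of the 14 genes, was thus the only control within the ExpOF range. With the trends on GC content and length removed from each library, which by construction brings the correlation with GC content towards 0, r across the 36 genes was -0.0038 and their median log2 fold change 0.021. In that fit 6 genes were higher at an unadjusted p under 0.05 (Cnksr2 0.26, Shank2 0.21, Homer2 0.15, Iqsec2 0.13, Gphn 0.13 and Trio 0.09) and 2 were lower (Dlg4 -0.22 and Camk2b -0.10), with 0 past the adjusted threshold in edgeR, where 19.0% of all genes had an unadjusted p under 0.05 and 7.62% were higher with it. The longest transcript of Dlg4 has a GC content of 46.8%, below the median of all genes, yet its level rose with the GC slope over the 23 libraries (r = 0.77). Whether its value of -0.22 comes from the removal itself was not tested. The log2 fold change of Homer1 was 0.01 in that fit. Dlg1 (-0.05) and Camk2d (-0.15) changed sign with the trends removed, and 12 of the 14 genes kept their direction. The part of base composition in the d14 differences was not tested further.

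**Figure D4:**
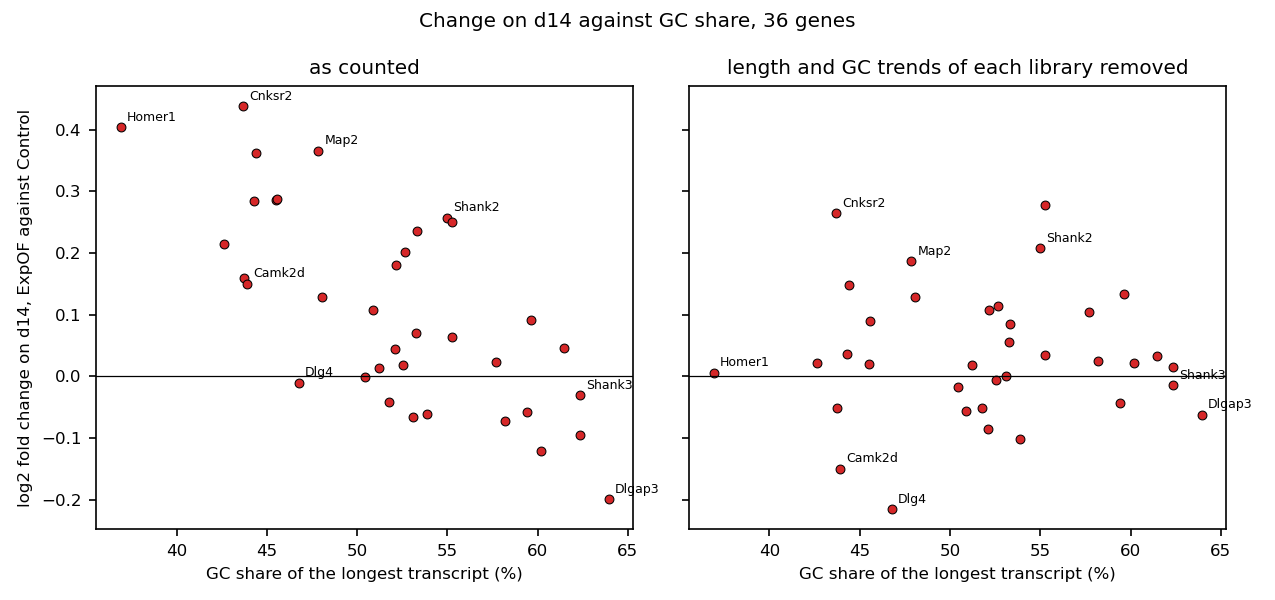
The d14 log2 fold change (y axis) of each of the 36 genes against the GC content of its longest transcript in percent (x axis), before and after the trends of each library were removed. Before, most genes low in GC lie above 0 and r is -0.72. After, r is -0.0038, as the removal brings about by construction.

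On d14+3, 0 of the 36 genes passed either threshold in edgeR's quasi-likelihood test, where 7.11% of all genes had an unadjusted p under 0.05 (2.91% higher and 4.2% lower) and 0% passed the adjusted one. DESeq2 called 0 of them too, with 1 of the 36 at an unadjusted p under 0.05. Of the 36 genes, 19 had a log2 fold change above 0 (52.1% of all genes) and the median was 0.011, against 0.007 over all genes. The 2 comparisons of diet share no libraries, but each shares its groups with the comparisons of time below. In the cohorts alone the median was 0.070 in July and -0.047 in September.

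Gphn had the smallest p on d14+3. It was at 66.6, 72.3 and 77.4 CPM in the 6 controls and 72.4, 77.9 and 79.6 CPM in the 6 ExpOF mice, where 4 of 6 lay above every control. The log2 fold change was 0.10 (SE 0.0493, unadjusted p = 0.0547, adjusted p = 0.710 from edgeR, exact permutation p = 0.0671), and it was 0.16 in July and 0.04 in September. With the trends on GC content and length removed, it was 0.13 on d14 and 0.10 on d14+3. Homer1 was at 16.1, 21.9 and 25.9 CPM in the controls and 19.2, 24.1 and 27.2 CPM in ExpOF mice, a log2 fold change of 0.17 (SE 0.115, unadjusted p = 0.161 from edgeR), with 0.42 in July and -0.10 in September. Ppp1r9b (420, 503 and 620 CPM against 391, 458 and 548 CPM) had a log2 fold change of -0.15 (SE 0.102) and Dlgap3 (90.4, 126 and 192 CPM against 70.8, 105 and 161 CPM) of -0.28 (SE 0.199). The groups overlapped widely in these genes.

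The other genes given in full on d14 had log2 fold changes on d14+3 with unadjusted p-values of at least 0.236 (Homer2, 0.13, edgeR). They were 0.18 for Cnksr2, 0.09 for Trio, 0.09 for Kalrn, 0.07 for Dlg2, 0.10 for Shank2, -0.06 for Shank1, -0.13 for Shank3, -0.02 for Dlg4, -0.0014 for Camk2a, -0.02 for Camk2b and -0.04 for Cacng2. The test of the difference between the effects of overfeeding on the 2 days gave 0 of 36 genes past either threshold in edgeR (4.42% of all genes had an unadjusted p under 0.05, 2.78% higher and 1.64% lower). The log2 fold change was lower on d14+3 than on d14 for 30 of the 36 and higher for 6, against 52.6% of all genes higher, with a median difference of -0.085. Homer1 differed by -0.24 (95% interval -0.56 to 0.09, unadjusted p = 0.166 from edgeR).

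Control mice of the 2 days were compared as a background to overfeeding. They differ in the time since the start of the infusions. According to the paper, their water infusion was also reset to a fixed rate when overfeeding ended. Time and infusion rate cannot be told apart here. Dlgap1 and Tiam1 rose from d14 to d14+3 past the adjusted threshold, as 2 of 36 genes, against 1.15% of all genes, and both were named after their values were seen. Dlgap1, a linker of PSD-95 to Shank (chr17:69969073-70821413), was at 112, 92.4, 103, 108 and 108 CPM in Control d14 replicates 1, 2, 3, 5 and 6 and at 124, 140 and 149 CPM in Control d14+3. The log2 fold change was 0.40 (SE 0.0770, adjusted p = 0.0124 from edgeR). Tiam1, an exchange factor for Rac (chr16:89787111-90143769), was at 53.6, 38.9, 49.2, 52.4 and 53.5 CPM and at 56.8, 73.1 and 89.7 CPM, and rose by 0.55 (SE 0.115, adjusted p = 0.0181 from edgeR). In both genes all 6 later mice were above all 5 earlier ones used. In the left-out Control d14 replicate 4, however, Dlgap1 was above every other control library. With all 24 libraries in the fit, edgeR called Tiam1 but not Dlgap1, among 160 genes. Without Control d14 replicate 2, neither gene passed and 24 genes of the whole table did. Tiam1 was also lost without Control d14 replicate 3 or without Control d14+3 replicates 1, 2 or 4, and with only the 2 groups in the fit 0 genes of the table passed.

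At an unadjusted p under 0.05, 13 of the 36 genes were higher in Control d14+3 than in Control d14 and 1, Baiap2, was lower (12.7% of all genes, 6.81% higher and 5.93% lower). A log2 fold change above 0 was found for 27 of the 36 (48% of all genes). The median log2 fold change was 0.12, against -0.0073 over all genes. Groups without overlap were found for Dlgap1, Tiam1 and Camk2a (higher, as 1.08% of all genes) and for Baiap2 (lower, as 0.495%). Camk2a reached 510, 553 and 604 CPM in Control d14+3, a log2 fold change of 0.24 (SE 0.0628, adjusted p = 0.0541 from edgeR). Shank3 reached 116, 179 and 228 CPM, a log2 fold change of 0.74 (SE 0.196, adjusted p = 0.0631 from edgeR, exact permutation p = 0.0173). DESeq2 called Camk2a, Dlgap1, Homer2, Shank3 and Tiam1, among 531 of 18992 genes. With the trends removed, edgeR called these 5 and Ppp1r9b among 431 genes, and with RIN as a covariate Camk2a, Dlgap1, Shank3 and Tiam1 among 251 genes. Over all 36 genes, 27 had the same direction in both cohorts as in the whole. The whole consists of these cohorts, so part of this agreement is built in, and the share over all genes was not computed.

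In ExpOF mice, 7 of the 36 genes were higher on d14+3 than on d14 at an unadjusted p under 0.05 and 1, Baiap2, was lower, against 7.79% of all genes (5.39% higher and 2.4% lower). A log2 fold change above 0 was found for 22 of the 36 (51.3% of all genes), groups without overlap for 0 in either direction (0.632% and 0.2% of all genes), and 0 passed the adjusted threshold in edgeR. Shank3 was at 109, 155 and 230 CPM on d14+3 and 74.5, 110 and 123 CPM on d14, where 5 of 6 later mice were above every earlier one. The log2 fold change was 0.65 (SE 0.186, adjusted p = 0.163 from edgeR, exact permutation p = 0.00866), and DESeq2 called this gene alone of the 36 (adjusted p = 0.0440). Dlgap1 (0.22), Camk2a (0.17) and Tiam1 (0.30) were also among the 7.

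Several of these genes moved with the summed telencephalon and thalamus markers given above, whose group medians were 282 and 561 CPM in Control d14 and d14+3 and 291 and 491 CPM in ExpOF d14 and d14+3. A few markers carry this sum, with Prkcd at 25.3 to 345 CPM, Tcf7l2 at 31.2 to 143 CPM and Slc17a7 at 3.26 to 81.1 CPM over the libraries. The list did not move as a whole: between days, 5 of 17 markers were higher and 1 lower in controls at an unadjusted p under 0.05 (median log2 fold change 0.24), and 5 were higher and 5 lower in ExpOF mice (median -0.025). Over the 23 libraries, log2 CPM of Shank3 correlated with the log2 of that sum at Pearson's r = 0.97 (two-sided permutation test with 100000 resamples, p = 1e-05, the smallest they can give, adjusted p = 4.8e-05) and Spearman's rho = 0.97. Leaving out the 2 libraries farthest from the median sum gave r = 0.97, the cohorts alone 0.98 and 0.97, and the libraries after removal of group means 0.95. The correlations were 0.94 for Ppp1r9b (rho = 0.94), 0.93 for Dlgap3 (rho = 0.94) and 0.91 for Dlgap4 (rho = 0.93), with the same permutation p and adjusted p, and 0.93, 0.92 and 0.91 without the 2 farthest libraries. In the cohorts alone these 3 genes gave 0.90 to 0.95. The correlation was 0.80 for Tiam1 (rho = 0.79) and 0.78 for Dlgap1 (rho = 0.75), with permutation p-values adjusted to 8.5e-05 and 0.000144, and 0.78 and 0.75 without the 2 farthest libraries. After removal of group means they were 0.65 for Tiam1 and 0.55 for Dlgap1. Of 72 such relations computed with this sum and with the GC slope, the sum gave 14 genes with a positive and 8 with a negative correlation at an adjusted p under 0.05. These relations were computed for the 36 genes only. The share over all genes is therefore not known, and the counts do not set the list apart from other genes.

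With the log2 of the marker sum as a covariate, an alternative chosen after the data were seen, the log2 fold change of Shank3 between days was 0.06 in controls and -0.08 in ExpOF mice, and those of Dlgap1 and Tiam1 in controls were 0.25 (adjusted p = 0.0480 from edgeR) and 0.27 (adjusted p = 0.103 from edgeR). This fit called 6 of the 36 genes in controls between days (Abi2, Dbn1, Dlgap1, Homer1, Homer2 and Map2), among 2406 of 18992 genes. The d14 log2 fold change of Gphn was 0.12 and that of Homer1 0.37 in this fit. The share of other tissue in these differences was not tested.

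The GC slope of the library gave 10 genes with a positive and 14 with a negative correlation at an adjusted p under 0.05. The slope was fitted to the values of all genes tested, these 36 included. By construction, genes low in GC therefore tend to fall, and genes high in GC to rise, as the slope rises. These counts and the p-values below are thus no independent support. Abi2 (rho = -0.89) and Map2 (rho = -0.90) reached r = -0.95 each, Homer1 -0.84 (rho = -0.74) and Cnksr2 -0.85 (rho = -0.81), and Camk2b 0.89 (rho = 0.88), all with a permutation p of 1e-05 for r (adjusted p = 4.8e-05). Homer1 gave -0.82 and -0.88 in the July and September cohorts and -0.80 without the 2 farthest libraries. The 2 measures correlated with each other at r = 0.52 over the 23 libraries, so they do not describe the libraries separately.

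**Figure D5:**
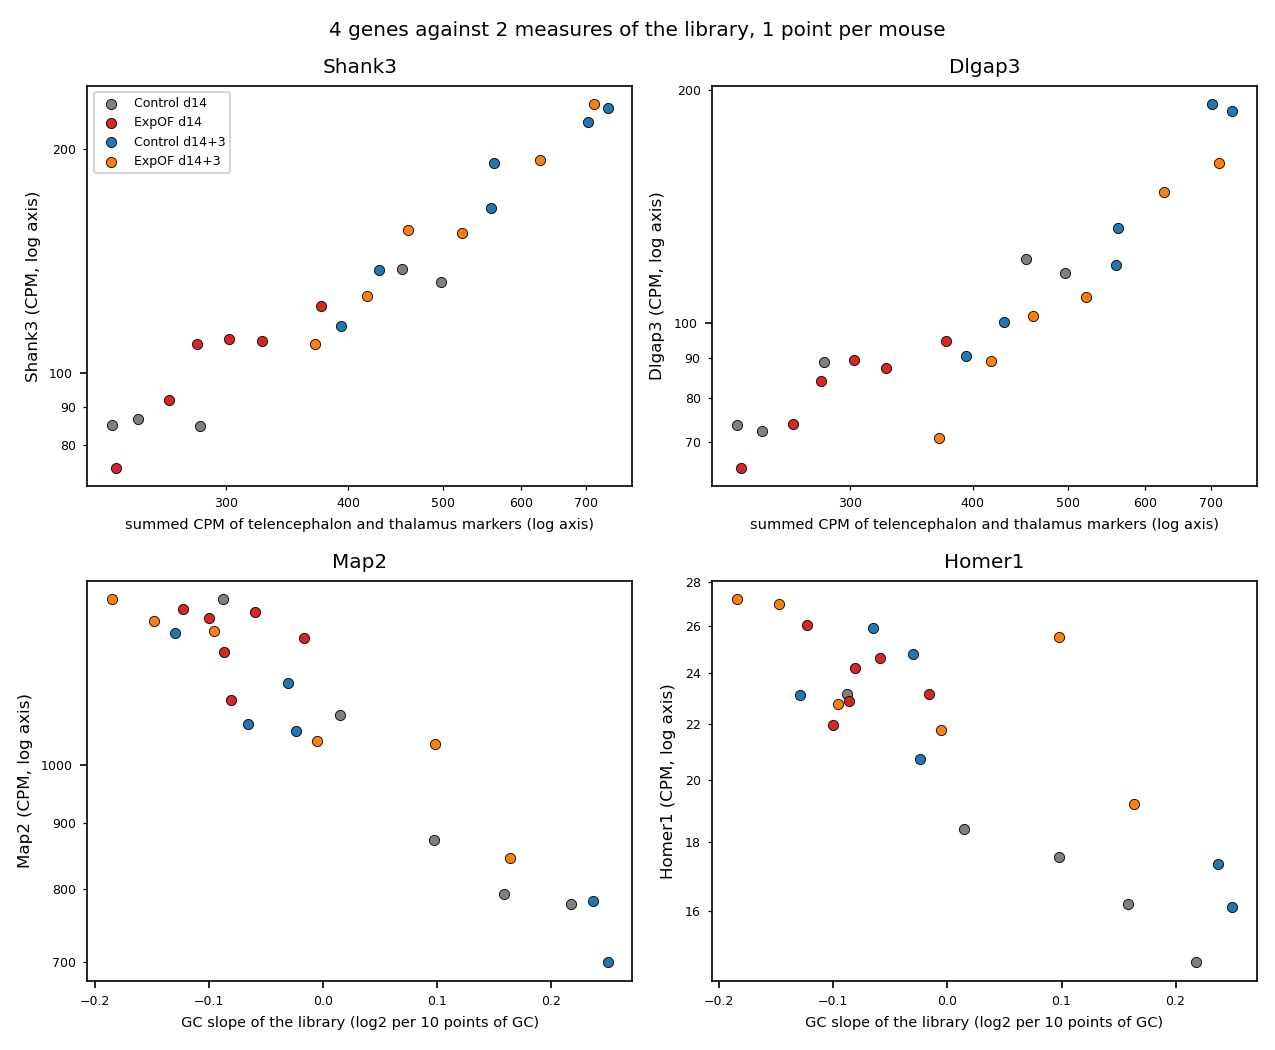
CPM of Shank3 and Dlgap3 (log axes) against the summed CPM of telencephalon and thalamus markers, and of Map2 and Homer1 (log axis) against the GC slope of the library in log2 units per 10 percentage points, with 1 point per mouse coloured by group. Shank3 is higher where the marker sum is higher (r = 0.97 on the log2 scale), whereas Homer1 is lower where the GC slope is higher (r = -0.84). The fit of the slope favours the latter by construction, as Homer1 is low in GC.

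Other genes of the pathway, from lists by textbook role that were also written with earlier results of these data known, are given for d14 as the numbers higher and lower at an unadjusted p under 0.05 and the median log2 fold change. 0 genes of these lists passed the adjusted threshold on d14 in edgeR. Of all genes tested on d14, 13.1% were higher and 13.6% lower at an unadjusted p under 0.05. Of 28 other postsynaptic density genes, 11 were higher and 2 lower (median 0.13). Nrgn, which buffers calmodulin, had the smallest p with a log2 fold change of -0.37, followed by Rapgef2 at 0.28. Of 21 glutamate receptor and auxiliary genes, 9 were higher and 2 lower (median 0.16), with Gria4 and Gria3, both AMPA receptor subunits, at 0.24 each. Of 14 inhibitory postsynapse genes, 8 were higher and 0 lower (median 0.23), with Slitrk3 at 0.32. Of 38 other spine actin genes, 8 were higher and 4 lower (median 0.03), with Actb at -0.24 and Wasl at 0.29. Of 11 other microtubule genes, 1 was higher and 2 lower (median -0.10), with Tuba1a at -0.28 and Stmn3 at -0.34.

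The marker lists of cell types give the tissue composition beside these counts. The shares of all genes on d14 given above are the background for them too. On d14, 4 of 12 neuron markers were higher and 0 lower (median 0.05), 2 of 18 hypothalamus markers were higher and 7 lower (median -0.17), and 4 of 17 telencephalon and thalamus markers were higher and 2 lower (median -0.0048). Of 9 astrocyte markers 2 were higher and 1 lower, of 10 microglia markers 1 and 2, of 10 oligodendrocyte markers 0 and 3, of 10 endothelial and mural markers 0 and 4, of 13 choroid plexus, ependymal and leptomeningeal markers 0 and 7, and of 7 erythrocyte and pituitary markers 0 and 1. Between days in controls, where Dlgap1 and Tiam1 passed the adjusted threshold, the neuron markers summed to 5460 to 5703 CPM on d14 and 6071 to 6254 CPM on d14+3, without overlap. In that comparison 5 of 12 neuron markers were higher and 0 lower at an unadjusted p under 0.05 (median 0.15, 2 past the adjusted threshold in edgeR), 0 of 18 hypothalamus markers were higher and 11 lower (median -0.39, 2 past it), and 5 of 10 oligodendrocyte markers were higher and 0 lower (median 0.17). Of all genes in that comparison, 6.81% were higher and 5.93% lower at an unadjusted p under 0.05. The part of these markers in the differences of the 36 genes was not tested. The setting for strand in the counting is not stated, and genes annotated on the opposite strand overlap Dlg2 (8 genes), Gphn (3 genes), Homer2 (2 genes), Dlgap1 (2 genes), Shank2 (2 genes), and Shank1, Shank3, Trio, Tiam1 and Cacng2 (1 gene each), while Cnksr2, Dlg4, Camk2b, Dlgap3 and Ppp1r9b overlap no other annotated gene.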

How the data were processed

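Poly-A selected RNA of the hypothalamus of 24 mice was sequenced, and the authors used STAR for alignment to mm10 and featureCounts 1.6.4 for counting on GENCODE vM22. The authors deposited whole-number counts for every gene, which had not been normalized. Which strand setting was used is not given in the sources used here. Gene names and GC content came from GENCODE vM21, which names 55144 of 55471 genes. Control d14 replicate 4 was left out because the study removed 1 mouse of that group: only without this library did the study's mean expression values match the counts, for 1899 of 1899 genes within 0.01%. Libraries were the unit of replication (1 mouse each), so p-values measure the spread between mice.

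The 4 groups (23 libraries) were fitted together with edgeR 4.0.16 under R 4.3.3, using TMM factors, the robust quasi-likelihood F-test and the filter filterByExpr (minimum count 10, minimum total 15), with Benjamini-Hochberg adjustment over all 18992 genes tested and a threshold of 0.05. CPM values use TMM factors, and log2 values per library a prior count of 2. Single genes were also compared with two-sided exact permutation tests over mice. Alternatives were DESeq2 1.42.0, DESeq2 size factors, other filters on low counts, only the groups compared, all 24 libraries, each cohort, covariates for RIN or for cohort and extraction round, a replicate block, offsets removing the trends of each library with GC content and length (splines with 5 degrees of freedom), and each library left out. A marker covariate was added after seeing the data. The fit was also run on simulated counts, drawn independently for each gene and so without the GC trends of these libraries. That run does not bear on those trends.

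The 36 genes and the other lists were chosen with earlier results of these data known. Genes given in full were the 8 with the smallest p on d14, the 4 with the smallest on d14+3, and Shank1, Shank2, Shank3, Homer1, Dlg4, Camk2a, Camk2b, Cacng2 and Gphn. Of the other lists, the 2 genes with the smallest p on d14 were named, except that some items are not reported here. The depth of 8928182 to 34848437 counts per library sets the precision, and intervals cover counting error and the spread between mice.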

Additional observations from a re-analysis of the deposited data

Results flagged for a closer look

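In 5 of 144 groups of CPM values (36 genes in 4 groups), 1 library lay far from the others by Dixon's criterion, and chance gives this in about 1 in 20 groups (5%). In ExpOF d14, replicate 4 was the lowest for Baiap2, an actin and membrane adaptor (53.27 CPM), and the highest for Camk2d (216.0 CPM). In Control d14+3, replicate 5 was the lowest for Dlg3 (116.5 CPM), and in ExpOF d14+3, replicate 6 was the highest for Mapt (776.1 CPM) and replicate 5 the lowest for Sipa1l1 (103.2 CPM).

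Control d14 replicate 4, which the comparisons did not use, had 5 of the 36 genes (Homer3, Dlg3, Dlgap1, Baiap2 and Mapt) above every other control library, while 24 of the 36 were below every one. Dlgap1 was at 168 CPM and Dlg3 at 144 CPM there, whereas Dlg2 was at 66.4 CPM and Trio at 47.8 CPM.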

How the results depend on the processing

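For ExpOF against control mice on d14, the number of genes of the whole table past the adjusted threshold was 166 with DESeq2, 2 with only the 2 groups, with the trends removed and with the marker covariate, and 0 in each cohort alone. It was 55 with DESeq2 and 26 with the RIN covariate on d14+3. For ExpOF mice between days it was 202 with DESeq2, 28 with at least 10 counts in every library, 123 with only the 2 groups, 78 with cohort and extraction round and 7 with the trends removed. For control mice between days it was 531 with DESeq2, 0 with only the 2 groups and in each cohort, 431 with the trends removed and 2406 with the marker covariate. Genes of the list with an unadjusted p under 0.05 on d14 numbered 0 in September (4.40% of all genes) and 8 with the trends removed (19.0%). On d14+3 they numbered 1 with DESeq2 (7.48% of all genes), with the stricter filter (7.22%) and with the marker covariate (6.81%). They numbered 3 in July (8.20%), and 2 in September (2.96%), with RIN (12.4%) and with the trends removed (8.49%). The median of the list was 0.18 on d14 with all 24 libraries, and on d14+3 0.070 in July and -0.047 in September. Leaving out 1 library gave 1 to 4220 genes of the table on d14, 24 to 313 in control mice and 0 to 157 in ExpOF mice between days. At an unadjusted p under 0.05 it gave 2 genes of the list on d14 (without Control d14 replicate 2, 14.4% of all genes) to 16 (without replicate 1, 38.4%). On d14+3 it gave 0 to 1, where the main fit had 7.11% of all genes. Signs changed with the trends removed for Dlg1 (-0.051) and Camk2d (-0.15) on d14. With the marker covariate they changed between days in ExpOF mice for Shank3 (-0.082), Dlgap3 (-0.33), Dlgap4 (-0.11), Ppp1r9b (-0.15) and Map2 (0.27), and in controls for Dlg1 (0.15), Dlgap3 (-0.21), Dlgap4 (-0.072) and Ppp1r9b (-0.079). The cause was not tested. Replicate numbers did not pair the mice (correlations of deviations from -0.153 to -0.024 on d14 and from -0.210 to 0.223 on d14+3). A block for them left 9 genes of the list at an unadjusted p under 0.05 on d14 (20.9% of all genes). Between days in controls 33 genes of the table passed the adjusted threshold with it, and 0 of the list. In Control d14, 5 mice and the single libraries named limit what differences of this size can show.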
